A study of Equus caballus with 2 samples.

Results

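*FAM216B*, *GARIN5B*, *NRIP3* and *TOX* are 4 of the 21426 genes listed in the deposited counts of equine endometrial fibroblasts. They were chosen by their level, which was much higher after 24 h of 10 ng/ml human recombinant TGF-β1 than in the control, and because little is known of them in fibroblasts. The levels that chose them come from the same libraries, so their difference between the libraries is a description and was not tested. Single cell RNA sequencing by droplets was carried out on 1 library of control cells and 1 library of TGF-β1 treated cells. Each library was a pool of cultured fibroblasts from the endometrium of 4 mares. The cells of both treatments had been grown on collagen-coated hydrogels, in medium with 10% and then 4% FBS. From 48 h to 72 h they were in medium with 0.1% BSA in place of serum. The control cells received nothing more in these 24 h, and the other cells received TGF-β1. The mares were pooled after the treatment. The cells were cultured fibroblasts and no longer part of a tissue, and the mare of each cell was not used here. With 1 library per treatment, the treatment and the handling of its library cannot be told apart.

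TGF-β1 is a secreted growth factor that binds a pair of receptor kinases at the cell surface, which then activate the SMAD transcription factors. In fibroblasts it is known for driving the production of matrix and of contractile proteins, and in the endometrium of the mare it is studied for its part in fibrosis around the uterine glands. *TOX* encodes a nuclear protein with an HMG box that is best known from the development of T cells in the thymus and from exhausted T cells. *NRIP3* is named as a nuclear receptor interacting protein and has no well described function. *GARIN5B*, formerly in the FAM71 family, belongs to the Golgi-associated RAB2 interactors, which are mainly known from the testis. *FAM216B* has no described function.

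A UMI is a molecular tag that marks 1 captured RNA molecule. Cells were kept from 20000 UMIs and 3500 genes upwards if under 4% of their UMIs lay on mitochondrial genes. This left 3865 of 4384 control barcodes with 210497250 UMIs, and 4513 of 5124 TGF-β1 barcodes with 219731144 UMIs. The median was 50313 UMIs per kept control cell and 43142 per kept TGF-β1 cell. The libraries shared 6 cell barcodes, of which 2 were kept in both. Fibroblast markers were present as labelled, with *COL1A1* at 5608 and 6376 UMIs per 1000000 UMIs of the library (CPM) and *VIM* at 4399 and 2240 CPM in the control and the TGF-β1 library. Of the 9 fibroblast markers, 2 were more than 2-fold lower after TGF-β1 and 0 higher, beside 3.46% lower and 3.45% higher of the 12116 genes compared below. The 2 lower markers were *PDGFRA*, with 50.5 and 16.7 CPM, and *THY1*, with 216 and 87.5 CPM. A fold is the ratio of CPM in the TGF-β1 library to CPM in the control, its log2 was taken without a pseudocount, and all intervals are at the 95% level and cover counting error only.

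All 4 genes were between 8.51-fold and 11.6-fold higher in the TGF-β1 library. They were infrequent transcripts in the control, between 2.63 and 4.37 CPM, and reached 23.9 to 43.7 CPM. The mean level of both libraries reached 1 CPM for 12116 genes, and the median log2 ratio over these was -0.01. By more than 2-fold, 3.45% of them were higher and 3.46% lower after TGF-β1, while 0.685% were higher by more than 4-fold and 0.206% by more than 8-fold. The 4 genes are in each of the higher groups because they were chosen for it.

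*FAM216B* (ENSECAG00000015189) had 795 UMIs in the control and 9609 in the TGF-β1 library. This was 3.78 and 43.7 CPM, and the log2 ratio was 3.53 (3.43 to 3.64). It was in place 15 among the 10940 named genes ordered by their ratio. Directly above it was *SYNDIG1*, with a log2 ratio of 3.56, and directly below it the potassium channel gene *KCNQ5*, with 3.44.

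*TOX* (ENSECAG00000022430) had 654 UMIs in the control and 6525 in the TGF-β1 library, or 3.11 and 29.7 CPM. Its log2 ratio was 3.26 (3.14 to 3.37), place 19 of the named genes.

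*GARIN5B* (ENSECAG00000014099) followed *TOX* directly, with 553 UMIs in the control and 5251 in the TGF-β1 library. Its level was 2.63 and 23.9 CPM, a log2 ratio of 3.19 (3.06 to 3.31). *NRIP3* (ENSECAG00000009783) had 920 and 8173 UMIs, or 4.37 and 37.2 CPM, and a log2 ratio of 3.09 (2.99 to 3.19). *TLL1*, a protease related to procollagen processing, stood between them with a log2 ratio of 3.14, and the glutamate receptor gene *GRIA4* stood below *NRIP3* with 2.99. The intervals of *TOX* and *GARIN5B* overlapped, as did those of *GARIN5B* and *NRIP3*, and that of *FAM216B* lay above all of these.

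**Figure D1:**
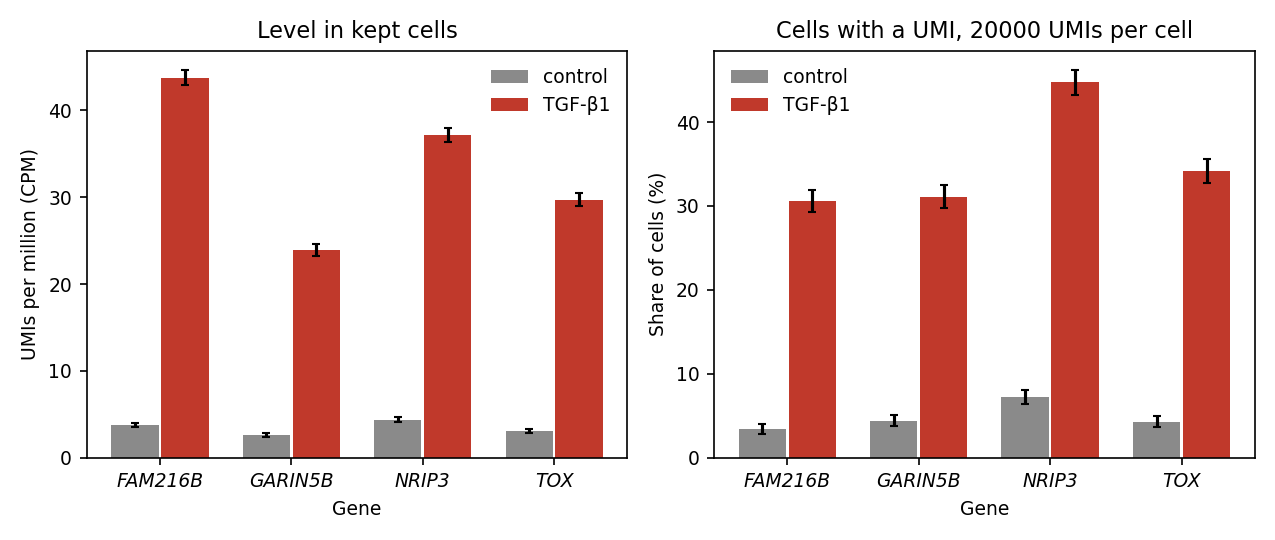
Left, the level of each gene in UMIs per 1000000 (CPM) in the control and the TGF-β1 library. Right, the share of cells with at least 1 UMI after each cell was thinned to 20000 UMIs. Bars are 1 library each and the lines are 95% intervals of counting error. Every gene was below 5 CPM in the control and above 20 CPM after TGF-β1.

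To compare cells at equal depth, the UMIs of each kept cell were drawn down at random to 20000. In the control, 131 cells had a UMI of *FAM216B*, or 3.39% (2.84 to 4.01), against 1380 cells or 30.6% (29.2 to 31.9) after TGF-β1. *GARIN5B* was detected in 4.37% (3.75 to 5.07) and 31.1% (29.7 to 32.4) of cells, and *TOX* in 4.32% (3.70 to 5.01) and 34.2% (32.8 to 35.6). For *NRIP3* these shares were 7.22% (6.42 to 8.08) and 44.7% (43.3 to 46.2). Detection was thus higher for each gene in the TGF-β1 library, and for each of them most TGF-β1 cells had no UMI at this depth. Without thinning, the shares ran from 7.19% to 15.9% in the control and from 43.2% to 67.1% after TGF-β1. All cells were fibroblasts by their label, so no cell type that should lack these genes was there to give a background share.

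The UMIs of *FAM216B* were spread among the cells less evenly than those of the other genes. In the TGF-β1 library, 14.3% of cells had 1 thinned UMI of *FAM216B*, 5.78% had 2 and 10.5% had 3 or more. A Poisson count with the same mean would be above 0 in 61.8% of cells, whereas 30.6% were. The variance of its UMIs was 7.95 times their mean, against 1.58 for *NRIP3*, 1.67 for *GARIN5B* and 1.88 for *TOX*. The tenth of cells highest in each gene held 71.5% of the thinned UMIs of *FAM216B*, 55.2% of *GARIN5B*, 52.4% of *TOX* and 42.9% of *NRIP3*.

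Among the cells with *FAM216B*, the mean was 3.14 UMIs after TGF-β1 and 2.50 in the control, where 8 of 131 cells held 53.8% of the UMIs. For *NRIP3* the corresponding means were 1.67 and 1.19, for *TOX* 1.70 and 1.37, and for *GARIN5B* 1.53 and 1.19. Both the number of cells with a UMI and the number per detected cell were thus higher for each gene. At counts this sparse, a higher level shows mainly in the share of cells with a UMI, so more cells with the transcript and more transcript per cell cannot be told apart from these values. Many of the detected cells held only 1 UMI, for instance 26.9% of all TGF-β1 cells for *NRIP3* and 20.8% for *GARIN5B*.

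A small number of cells with very high *FAM216B* were present in both libraries. In the control, the highest cell held 121 UMIs, or 15.2% of all control UMIs of the gene, and the 10 highest cells held 55.3%. In the TGF-β1 library the highest cell held 95 UMIs, or 0.989%, and the 10 highest held 6.58%. At least 10 thinned UMIs of *FAM216B* were found in 8 control cells and 79 TGF-β1 cells, the latter 1.75% of the library. *TOX* reached this number in 1 cell of each library, and *GARIN5B* and *NRIP3* in 0. Without the highest cell of each library, a setting chosen after seeing the data, the log2 ratio of *FAM216B* was 3.76.

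**Figure D2:**
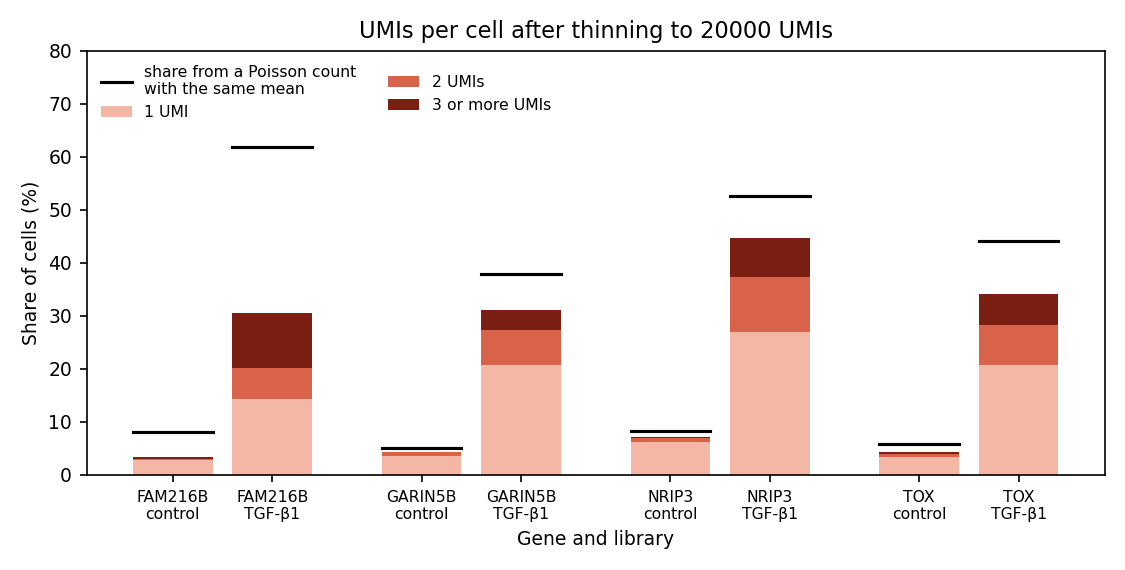
Share of cells (%) with 1, 2, and 3 or more UMIs of each gene after thinning to 20000 UMIs per cell, stacked, for the control and the TGF-β1 library. The black line is the share that a Poisson count with the same mean would give. For *FAM216B* after TGF-β1, the bar ends at 30.6% and the line is at 61.8%.

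The 4 genes were next followed through groups of cells that were alike in their other transcripts. Clustering of both libraries together gave 8 clusters, numbered 0 to 7, of 57 to 1223 cells per library. Cluster 6 was cycling-like, in which 9 of 9 cycling markers exceeded 2-fold of their level elsewhere, and the remaining clusters are given by their leading genes. All 4 genes were among the 2000 variable genes used for the clustering, so their differences between clusters are descriptions. In each of the 8 clusters, each of the 4 genes was more than 2-fold higher in the TGF-β1 cells. The genes were chosen for their ratio over these same cells, so this is a description as well.

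*FAM216B* differed most between the clusters of the TGF-β1 library. It was highest in cluster 2, led by the collagen gene *COL4A3*, *FREM1* and *DACH1*, with 14.4 CPM in the control and 80.4 CPM after TGF-β1. It was lowest in cluster 3, led by *SPP1*, *MATK* and the keratin genes *KRT7* and *KRT8*, with 0.842 and 6.60 CPM. The level after TGF-β1 thus spanned 12.2-fold over the clusters. In cluster 5, led by the complement gene *CFD*, it was 2.65 and 71.3 CPM, and in the cycling-like cluster 6 it was 1.02 and 54.9 CPM. Of the control library, cluster 2 held 16.5% of cells but 61.6% of the *FAM216B* UMIs, and of the TGF-β1 library 16.4% and 30.8%. Of the cells with at least 10 thinned UMIs, 7 of 8 in the control and 32 of 79 after TGF-β1 were in it. These 8 control cells held 53.8% of the thinned control UMIs of the gene. Only 4.87% of the control cells of cluster 2 had a thinned UMI of *FAM216B*, against 5.81% in cluster 5 and 4.44% in cluster 6, so its high control level and its low ratio rested on a few cells. The log2 ratio was 2.49 (2.35 to 2.63) within cluster 2 and 5.75 (4.86 to 6.82) within cluster 6. Without cluster 2, a setting also chosen after seeing the data, the ratio over all other cells was 4.39.

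*TOX* spanned 6.55-fold over the clusters after TGF-β1. It was highest in cluster 2 as well, with 5.66 CPM in the control and 48.3 CPM after TGF-β1. It was lowest in cluster 5, with 1.47 and 7.38 CPM, which rested on 10 and 48 UMIs. Its log2 ratio was between 2.33 (1.33 to 3.48) in cluster 5 and 3.88 (3.51 to 4.27) in cluster 4, led by *EPHA6* and *EDIL3*. Cluster 5 was thus the lowest for *TOX* and the second highest for *FAM216B* among TGF-β1 cells.

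*GARIN5B* and *NRIP3* were more even. *GARIN5B* was between 14.5 CPM in cluster 3 and 34.7 CPM in cluster 5 after TGF-β1, a span of 2.39-fold, and its log2 ratio was between 2.89 in cluster 4 and 3.66 in cluster 2. *NRIP3* was between 21.9 CPM in cluster 7, led by *CA4* and *GDF15*, and 47.3 CPM in cluster 4, a span of 2.16-fold. Its log2 ratio was lowest in cluster 3, at 2.43 (2.20 to 2.67), and highest in cluster 5, at 5.14 (3.99 to 6.60), where only 6 control UMIs were counted. Cluster 3 was low in *FAM216B* and *GARIN5B*, and it was second lowest in *NRIP3* with 23.5 CPM, but it was not low in *TOX*, with 28.1 CPM.

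**Figure D3:**
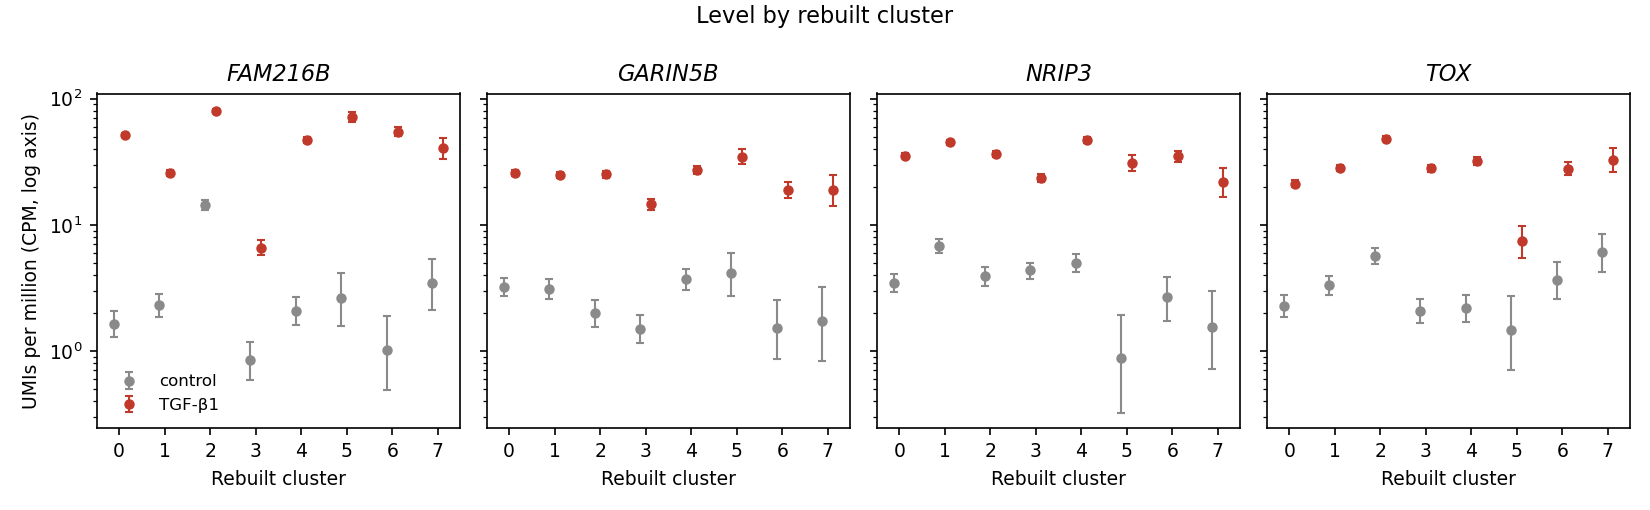
Level of each gene in UMIs per 1000000 (CPM, log axis) in the 8 rebuilt clusters, for control cells in grey and TGF-β1 cells in red. Lines are 95% intervals of counting error. The red point is above the grey point in every cluster, and *FAM216B* spans from 6.60 CPM in cluster 3 to 80.4 CPM in cluster 2 after TGF-β1.

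The cells of the TGF-β1 library were then searched for combinations of the 4 genes. At 20000 UMIs per cell, 19.4% of cells had a UMI of none of them, 37.0% of 1 gene, 29.6% of 2, 11.8% of 3 and 2.22% (1.81 to 2.69) of all 4. If the genes were detected independently, 1.45% of cells would hold all 4 and 17.4% none. In the control, 82.9% of cells had none, 15.0% had 1 and 0 of 3865 cells had all 4, with an upper limit of 0.0954%.

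Pairs were found together about as often as their separate shares give, or slightly more often. *FAM216B* and *TOX* were both present in 529 TGF-β1 cells against 472 expected, a ratio of 1.12 (1.03 to 1.22). For *FAM216B* and *NRIP3* the ratio was 1.11 (1.02 to 1.19), from 682 cells against 617. With another random draw these ratios were 1.09 and 1.06, and their intervals then reached below 1. The remaining 4 pairs had ratios from 1.01 for *NRIP3* and *TOX* to 1.07, with intervals that included 1. *GARIN5B* with *TOX* was at 1.05 and went to 0.996 with another draw. In the control the pairs were found in 9 to 22 cells each, and all 6 ratios were above those of the TGF-β1 library, from 1.33 (0.759 to 2.16) for *NRIP3* and *TOX* to 2.19 (1.25 to 3.56) for *GARIN5B* and *TOX*. The intervals also lay above 1 for *GARIN5B* with *NRIP3*, at 1.80 (1.13 to 2.73), and for *FAM216B* with *NRIP3*, at 1.80 (1.05 to 2.88). The ratio can rise further where the separate shares are small, as in the control, so the 2 libraries are not on the same scale. The difference of these ratios between the libraries was not tested.

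Of the known TGF-β1 targets taken for comparison, the growth factor binding protein gene *IGFBP3* was found with *FAM216B* at a ratio of 1.18 (1.09 to 1.28) and with *NRIP3* at 1.08 (1.01 to 1.15). With *GARIN5B* and *TOX* its ratios were 1.06 and 1.07, with intervals that included 1. *AREG*, a ligand of the EGF receptor, was found with *FAM216B* at 0.907 (0.805 to 1.02) and with *NRIP3* at 0.946 (0.859 to 1.04). With *GARIN5B* it was at 1.02 (0.913 to 1.14) and with *TOX* at 1.06 (0.959 to 1.18). All intervals of *AREG* included 1.

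**Figure D4:**
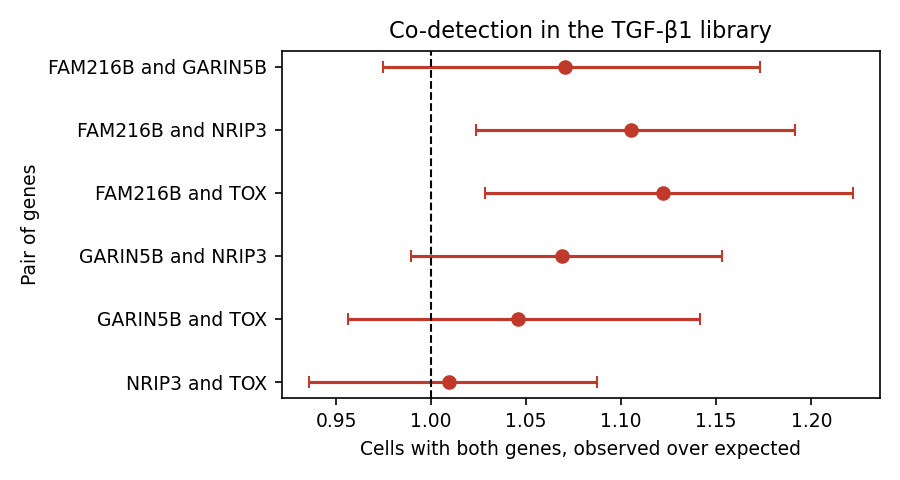
Number of TGF-β1 cells with a UMI of both genes divided by the number expected from the separate shares, for the 6 pairs of genes, after thinning to 20000 UMIs per cell. Lines are 95% intervals of counting error and the dashed line is at 1. The ratios lie between 1.01 and 1.12.

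To see which transcripts varied with each gene from cell to cell, the Pearson correlation over the 4513 TGF-β1 cells was computed against all other genes with at least 10 CPM in that library, 7599 for each of the 4 genes. The values come from sparse counts of cells of 1 library at equal depth, most of them are close to 0, and they are given as a description. The 99th percentile over all genes was 0.110 for *FAM216B*, 0.0558 for *GARIN5B*, 0.0756 for *NRIP3* and 0.122 for *TOX*.

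*FAM216B* varied most closely with *PRXL2A*, a gene of the peroxiredoxin-like family, at r = 0.31 in the TGF-β1 library and 0.13 in the control. It was followed by the retinol binding protein gene *RBP2* (0.24), the death receptor ligand gene *TNFSF10* (0.21), the type VI collagen gene *COL6A3* (0.21) and the protease inhibitor gene *TFPI2* (0.20). The lowest values were those of *RPSA*, a ribosomal protein gene, at -0.22, and the muscle intermediate filament gene *DES*, at -0.22. After subtraction of each cluster's mean, *PRXL2A* was at 0.25 and *DES* at -0.16. Of the contractile genes in the list of known TGF-β responders, *ACTA2*, *TAGLN* and *CNN1* had r of -0.18, -0.19 and -0.12 with *FAM216B*.

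For *GARIN5B*, r with the same contractile genes was above 0. Its highest values were those of the cytokine gene *IL11* (0.11), the calponin gene *CNN1* (0.11), the tropomyosin gene *TPM1* (0.11), the matrix protein gene *SPARC* (0.10) and the tetraspanin gene *CD151* (0.099). *TAGLN* was at 0.096 and *ACTA2* at 0.044. Its lowest were *S100A10*, a partner of annexin A2, at -0.11 and the mitochondrial *MT-CO3* at -0.092. After subtraction of each cluster's mean, *S100A10* was still at -0.11 but *MT-CO3* was at -0.039.

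*NRIP3* was highest with *COL6A3* (0.17), the serine protease gene *HTRA1* (0.16), the fibronectin gene *FN1* (0.16), *KIF26B* (0.15), a kinesin family member, and *MXRA5* (0.15). With *FN1* its r in the control was similar, at 0.17. It was lowest with *IGFBP2* (-0.14) and *MT-ATP6* (-0.13).

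*TOX* was highest with the transcription factor gene *FOXP1* (0.19), the adaptor gene *APBB2* (0.19), the receptor phosphatase gene *PTPRG* (0.18), the guanine nucleotide exchange factor gene *TRIO* (0.18) and the heparan sulfate synthesis gene *EXT1* (0.17). Its r with *FN1* was 0.16. It was lowest with the ribosomal protein gene *RPL8* (-0.14) and the thioredoxin gene *TXN* (-0.14). After subtraction of each cluster's mean these values were closer together, with *FOXP1* at 0.13, *EXT1* at 0.10, *RPL8* at -0.086 and *TXN* at -0.10. Of the 50 genes lowest with *TOX*, 30 encoded ribosomal proteins, against 11 for *GARIN5B*, 10 for *NRIP3* and 3 for *FAM216B*, from 58 such genes among the 7159 named genes. The r of *TOX* with the share of a cell's UMIs on ribosomal protein genes was -0.16, and its part in these values was not tested.

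The transcripts at both ends of these correlations were also compared between the libraries. All were kept by a level of at least 10 CPM in the TGF-β1 library alone, so some passed only through their higher level there. The 7159 named genes set beside them were kept by the same rule. Among the 50 genes with the highest r, those past 2-fold higher numbered 16 for *FAM216B*, 20 for *GARIN5B*, 19 for *NRIP3* and 7 for *TOX*, beside 2.91% of the 7159 named genes. Among the 50 with the lowest r they numbered 5, 0, 1 and 0 in the same order, and 1, 4, 8 and 1 were more than 2-fold lower, beside 1.34% of the named genes. Higher by any amount were 38, 44, 46 and 47 of the 50 highest and 35, 9, 12 and 7 of the 50 lowest, beside 54.5% of the named genes. For *FAM216B*, the genes at both ends were thus mostly higher. The r in the control was above 0 for 50, 47, 49 and 50 of the 50 highest and 2, 6, 8 and 2 of the 50 lowest, beside 54.4%, 45.3%, 59.8% and 57.6% of the named genes. Among themselves, the 4 genes had r between -0.0035 for *NRIP3* with *TOX* and 0.060 for *FAM216B* with *NRIP3*.

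Neighbouring genes were taken from the RefSeq annotation of another horse assembly, TB-T2T, for their order only. *GARIN5B* lies next to *IL11*, a cytokine gene of the IL6 family with a known role in fibroblast activation. *IL11* had 31566 UMIs in the control and 437982 in the TGF-β1 library, or 150 and 1993 CPM, a log2 ratio of 3.73 (3.72 to 3.75). The gene beyond it, *TMEM190*, had 109 and 425 UMIs and a log2 ratio of 1.90 (1.59 to 2.22). On the other side, the histone methyltransferase gene *KMT5C* was at 0.59, and *COX6B2* was not found by symbol. *GARIN5B* and *IL11* were thus both far higher after TGF-β1.

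The counts of *GARIN5B* did not stay in a fixed proportion to those of *IL11*. There were 0.0175 (0.0161 to 0.0191) UMIs of *GARIN5B* per UMI of *IL11* in the control and 0.0120 (0.0117 to 0.0123) in the TGF-β1 library. Within the TGF-β1 library this proportion was between 0.00831 in cluster 6 and 0.0158 in cluster 2. When the TGF-β1 cells were divided into 5 equal parts by their *IL11* UMIs, with medians of 5, 14, 27, 46 and 95, *GARIN5B* was detected in 20.2%, 31.3%, 33.9%, 34.9% and 35.0% of cells. Whether reads of the *IL11* transcript were counted for *GARIN5B* was not tested.

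The other genes followed *IL11* differently over the same 5 parts. *FAM216B* was detected in 17.4% of the cells lowest in *IL11* and 41.2% of those highest, with 24.8%, 31.2% and 38.3% between. *NRIP3* went from 38.6% to 50.2%. *TOX* was between 31.0% and 37.0% without an order.

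**Figure D5:**
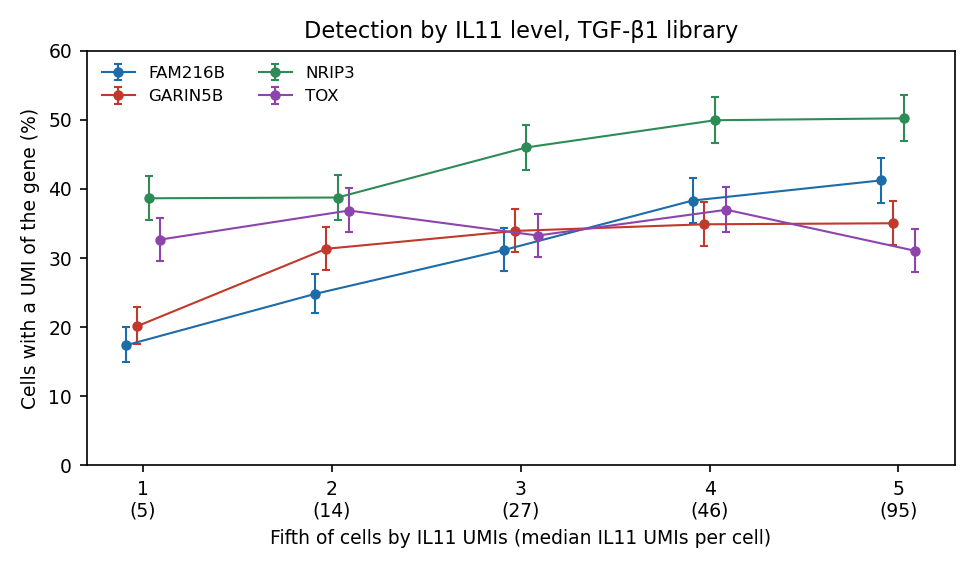
Share of TGF-β1 cells (%) with a UMI of each gene, for cells divided into 5 equal parts by their *IL11* UMIs, after thinning to 20000 UMIs. Numbers in brackets are the median *IL11* UMIs per cell of each part, and lines are 95% intervals of counting error. *FAM216B* goes from 17.4% to 41.2% and *TOX* stays between 31.0% and 37.0%.

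For *FAM216B*, the adjacent *TNFSF11*, which encodes the osteoclast factor RANKL, had 65 UMIs in the control and 464 after TGF-β1, with a log2 ratio of 2.77 (2.40 to 3.17). The next gene, *AKAP11*, was at 0.22. Among protein-coding neighbours, a rule added after seeing the data, *EPSTI1* was at -0.58 and *DNAJC15* at 0.44 on the other side. Close to *TOX*, *NSMAF* was at -0.11. Under the added rule *SDCBP* was at -0.79 and the carbonic anhydrase-related gene *CA8* had 298 and 1404 UMIs, a log2 ratio of 2.17 (1.99 to 2.36). Near *NRIP3*, *SCUBE2* was at -0.08 (-0.38 to 0.21) and, under the added rule, *C7H11orf16* at -0.18 (-0.59 to 0.24), while *TMEM9B* was not found by symbol.

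The relatives of the 4 genes are given beside them, with no comparison, since the 4 were chosen for the size of their ratio. A list of 25 symbols held the FAM216, GARIN, NRIP and TOX families with their former names, of which 15 were found and 6 reached a mean of 1 CPM. More than 2-fold higher were 4 of these 6, which were the 4 genes themselves as their choice fixes, and 0 were lower. The remaining pair was *NRIP1*, a corepressor of nuclear receptors, with 43.4 and 60.4 CPM and a log2 ratio of 0.48, and *TOX4*, with 47.4 and 49.3 CPM and 0.06. *TOX2* had 61 and 166 UMIs, a log2 ratio of 1.38 (0.95 to 1.83), and *TOX3* had 0 and 2 UMIs. *NRIP2* had 42 and 45 UMIs.

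In the GARIN family, *GARIN1A* had 186 UMIs in the control and 140 in the TGF-β1 library, *GARIN2* had 33 and 62, *GARIN4* 21 and 14, *GARIN6* 20 and 6, *GARIN1B* 17 and 7, and *GARIN3* had 0 in both. *GARIN5A* and *FAM216A* were not found by symbol. *GARIN5B* was thus the only GARIN gene found here with a mean of at least 1 CPM.

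Known partners of the families and factors that accompany them were taken as a further list. Of 16 symbols, 12 reached a mean of 1 CPM, of which 0 were more than 2-fold higher and 1 was lower, with a median log2 ratio of 0.02. Over all 12116 genes, 3.45% were higher and 3.46% lower by this limit, so the count was close to this background. *RAB2A*, the Golgi GTPase that GARIN proteins bind, had 414 and 470 CPM, a log2 ratio of 0.18, and *RAB2B* was at 0.06. *NFATC1* and *NFATC2*, calcium-dependent factors that act upstream of *TOX* in T cells, were at 0.49 and 0.03. *NR4A1*, an orphan nuclear receptor that accompanies *TOX* in exhausted T cells, was lower, with 88.3 and 38.1 CPM and a log2 ratio of -1.21. *NR4A2* and *NR4A3* were at -0.26 and -0.73.

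Of 31 known TGF-β responders, all of which reached a mean of 1 CPM, 10 were higher by more than 2-fold and 0 lower, beside 3.45% higher and 3.46% lower over all 12116 genes. Their median log2 ratio was 0.48 and 29 of them were higher by any amount. The list was chosen with earlier results of these data known. It holds genes that the study itself reported as raised by TGF-β1 in these cells, such as *AREG* and *IGFBP3*. Its count is therefore a description. *IGFBP3* had 3.69 and 108 CPM, a log2 ratio of 4.87, *AREG* was at 3.29 and *TGFBI*, a matrix protein gene, at 2.32. Of the inhibitors of the pathway, *PMEPA1* was at 2.13, *SMAD7* at 1.05 and *SKIL* at 0.72, while *SMURF1*, *SMURF2*, *SKI* and *TGIF1* were between 0.24 and 0.48 and *BAMBI* was at 0.05 (-0.01 to 0.11). *JUNB* and *ID1* were lower, at -0.64 and -0.31. The 4 genes were thus further apart between the libraries than most of these responders, as their choice by the size of the ratio fixes.

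The cell types from which these genes are mainly known were looked for by their markers. Of 17 T cell markers, 15 were found, 0 had a mean of 1 CPM, and together they had 0.907 CPM in the control and 0.728 after TGF-β1. The most abundant, *LAG3*, had 70 and 44 UMIs, *CD8A* 42 and 37 and *TIGIT* 36 and 54. *CD3E* had 2 and 1 UMIs, *CD3D* 0 in both, and the leukocyte gene *PTPRC* 1 and 0, against 654 and 6525 of *TOX*. Markers of germ cells summed to 1.92 and 1.09 CPM, with 10 of 14 found, where *SYCP1* had 140 and 115 UMIs and *DDX4* 191 and 43. Markers of ciliated cells summed to 13.2 and 11.5 CPM, with 18 of 21 found. Of the 4 at or above 1 CPM, 0 were more than 2-fold different, beside 3.45% higher and 3.46% lower over all 12116 genes. The most abundant ciliated markers, *RSPH1* and *SPAG6*, had 3.30 and 3.43 CPM in the control and 3.72 and 2.49 CPM after TGF-β1.

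Neuronal markers summed to 14.1 and 23.6 CPM. Of 5 with a mean of at least 1 CPM, 1 was more than 2-fold higher and 0 lower, beside 3.45% and 3.46% of all 12116 genes. This was *NEFM*, with 0.988 and 4.01 CPM and a log2 ratio of 2.02. It reached the mean of 1 CPM only through its level in the TGF-β1 library. *SNAP25* had 7.08 and 12.3 CPM. The r of *SNAP25* with *FAM216B* in the TGF-β1 library was 0.18, or 0.15 after subtraction of each cluster's mean, and with the other 3 genes it was 0.020 to 0.025. The part of these markers in the results was not tested. The 6 epithelial markers found summed to 134 and 12.3 CPM, nearly all of it from *KRT8*, with 114 and 4.48 CPM, and *KRT7*, with 19.3 and 7.04 CPM. The defining markers *EPCAM*, with 1 and 3 UMIs, and *CDH1*, with 6 and 4, were close to 0 in both libraries, and *CLDN4* had 19 and 49. Endothelial markers summed to 0.798 and 0.423 CPM, of which *VWF* had 99 and 45 UMIs. Of the 9 cycling markers found, 0 were more than 2-fold higher and 1 was lower, beside 3.45% and 3.46% of all 12116 genes. The median log2 ratio of these markers was -0.61. All but the most abundant, *UBE2C*, with 19.8 and 20.2 CPM, were lower by some amount, for instance *CDC20* at -1.36.

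The number of UMIs per cell moved little with *GARIN5B*. Its level after TGF-β1 was 23.6 CPM in the third of cells with the fewest UMIs, 25.3 CPM in the middle and 23.2 CPM in the third with the most. For *NRIP3* these levels were 36.1, 40.7 and 35.5 CPM, and for *TOX* 23.0, 30.5 and 32.3 CPM. *FAM216B* was at 62.7, 39.5 and 37.6 CPM, against 3.41, 4.42 and 3.53 CPM in the control. Its log2 ratio was therefore 4.20 in the cells with the fewest UMIs, 3.16 in the middle and 3.41 in those with the most.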

How the data were processed

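The authors deposited UMI counts per gene and cell barcode for each library, made with Cell Ranger from reads aligned to EquCab3.0 with the Ensembl annotation. The methods and the submitters' processing notes name Cell Ranger 7.1.0, whereas the file headers name 8.0.1. Depth was 214282770 UMIs in the control and 224189951 in the TGF-β1 library before the filters on cells. MFGE8-treated cells were not analysed here. Of the listed genes, 5196 had no symbol.

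Counts were added up over kept cells, by library and by cluster, in Python 3.11.15 (numpy 2.4.6, scipy 1.17.1, pandas 2.3.3) and scaled to CPM. Intervals were exact binomial or Poisson at the 95% level. No ratio was computed where both libraries had 3 or fewer UMIs, or within a cluster where either had. Clusters were rebuilt in Seurat 5.3.0 (R 4.3.3) with 2000 variable genes, 30 dimensions, integration by canonical correlation and resolution 0.5, and a cluster was called cycling-like with at least 3 of its markers more than 2-fold higher. They are not the clusters of the study. The authors' assignment of cells to mares and removal of doublets by genotype, and their edgeR tests, rest on the reads and were not repeated. No doublets were removed in the main setting. With 1 library per treatment no test was made. The ratios and co-detection were tested on simulated data with known answers. Figures were drawn in matplotlib 3.10.9.

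Members, lists and settings were chosen with earlier results of these data known. Named are the 4 genes, for each the 5 named genes with the highest and 2 with the lowest correlation, the genes directly above and below in ratio (1 of them is not reported here), neighbours, genes of the lists of relatives, partners and TGF-β responders, and the most abundant marker of each list. The remaining genes named by value, among them cluster leaders and defining markers, were chosen after their values were seen. Sequences of the genes and their promoters were not used here. Alternatives covered the filters on cells, scaling, thinning, cluster resolution, kind of correlation and limits on genes.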

Additional observations from a re-analysis of the deposited data

Results flagged for a closer look

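The 4 genes were also counted in the barcodes that the filters on cells left out, 519 in the control and 611 in the TGF-β1 library, which no comparison above used. In these barcodes of the TGF-β1 library, *FAM216B* was at 83.9 CPM (374 UMIs in 53 barcodes), against 4.49 CPM in those of the control (17 UMIs in 10 barcodes). *TOX* was at 57.6 against 4.23 CPM, *NRIP3* at 28.3 against 4.49 CPM and *GARIN5B* at 17.5 against 2.38 CPM. All 4 were above the control. *FAM216B* and *TOX* were also above their levels of 43.7 and 29.7 CPM in the kept cells of the TGF-β1 library, whereas *NRIP3* and *GARIN5B* were below theirs. The totals were 3785520 UMIs in the control and 4458807 in the TGF-β1 library.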

How the results depend on the processing

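Of 156 values recomputed under an alternative, 116 kept their direction and moved by less than their counting interval, for counts of genes by less than 1.5 times, or for medians over clusters by less than the spread of the clusters, 39 moved further and 1 changed direction. The log2 ratio stayed between 3.16 and 4.39 for *FAM216B*, 3.08 and 3.23 for *GARIN5B*, 2.87 and 3.47 for *NRIP3*, and 3.16 and 3.31 for *TOX*. For *FAM216B* it was 4.20, 3.16 and 3.41 in the cells with the fewest, middle and most UMIs, 3.76 without the highest cell of each library and 4.39 without cluster 2, and for *NRIP3* it was 3.47 and 2.87 in the cells with the fewest and most UMIs. The cause was not tested. The shares of TGF-β1 cells with *FAM216B*, *GARIN5B*, *NRIP3* and *TOX* were 43.2%, 50.3%, 67.1% and 51.0% without thinning, 21.6%, 19.4%, 28.9% and 20.8% when thinned to 10000 UMIs, and 16.3%, 10.3%, 17.8% and 13.5% with at least 2 UMIs required, as more or fewer UMIs per cell were counted. Co-detection of *GARIN5B* and *TOX* went to 0.996 (0.907 to 1.09) with another random draw. Of the 5 genes highest in r with *GARIN5B*, 4 were among its 20 highest with another draw, and for the other genes all 5 were under each alternative. Genes past the limit, 418 higher and 419 lower, became 176 and 163 at 10 CPM or more, 1141 and 1216 with more than 3 UMIs in either library, 926 and 1134 at 1.5-fold, and 83 and 79 at 4-fold. No paired analysis was possible because the cells were not assigned to their mares here, which left 1 sample per treatment, and for the same reason no replicate could be left out. Depth limits the shares of cells, since a cell without a UMI may still hold the transcript.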
